A study of Homo sapiens with 18 samples.

Results

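The cytosolic ribosomal protein genes are the genes for the proteins of the large (60S) and small (40S) subunits of the ribosome outside the mitochondrion. They were taken from the gene rows of the count tables by symbol: names starting with RPL or RPS followed by a number and, in some, a closing letter or digit, together with RPLP0, RPLP1, RPLP2 and RPSA. Of 34912 genes, 86 symbols matched; RPL39L was dropped because its counts summed to under 100 over all libraries, and the 2 RPS4Y genes were dropped by the rule. The remaining 83 genes comprised 51 of the large subunit and 32 of the small subunit. FAU and RACK1, which also encode ribosomal proteins, and RPL36AL, a copy of RPL36A, carry names outside the pattern and are described beside them.

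RNA was sequenced from LNCaP, a human prostate cancer cell line that depends on androgen signalling. All groups shared a deprivation of 48 h in phenol red-free medium whose serum, at 5%, had been stripped with charcoal to remove steroid hormones, and were then given 10 nM R1881, a synthetic androgen, or 96% ethanol as vehicle for 24 h. Each treatment was combined with a pool of non-targeting control siRNAs, a pool against KLF5, a zinc finger transcription factor, or a pool against NFYA, which with its partners forms the CCAAT-binding factor NF-Y, giving 6 groups of 3 samples in the labels. Replicate 1 of siKLF5 vehicle (number 7 in the labels) was not analysed here, so 17 of 18 libraries were used and siKLF5 vehicle had n = 2. The labels do not say whether replicates were separate cultures, so p-values measure the spread between these samples, which may be technical.

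A ribosome holds 1 copy of nearly every ribosomal protein, and cells therefore make these proteins in matched amounts. Their mRNAs are among the most abundant of growing cells, and most begin with a C followed by an unbroken run of pyrimidines, the 5′ terminal oligopyrimidine (TOP) motif, through which the kinase mTOR controls their translation. Several members have a closely related copy elsewhere in the genome (RPL22 and RPL22L1, RPS27 and RPS27L, RPL36A and RPL36AL), and the copy can take the same place in the ribosome. In prostate cancer cells androgen is known to alter growth and protein synthesis.

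Libraries held between 4416653 and 6872421 estimated counts, and the total is the depth behind every value. NFYA itself stood at 74.3 to 82.9 CPM (counts set to 1 common library total) in the control libraries and at 48.2 to 54.8 in the siNFYA libraries. KLF5 was at 22 to 33 counts in control vehicle, at 7 and 22 in siKLF5 vehicle replicates 2 and 3, at 135 to 164 in control R1881 and at 59 to 65 in siKLF5 R1881. The library labelled siKLF5 vehicle replicate 3 thus lay at the lowest control vehicle value in counts. In CPM it lay just below the control vehicle libraries, at 3.30 against 3.54 to 5.34, and replicate 2 was at 1.02. KLF5 did not pass the test in vehicle (log2 change -1.08, adjusted p = 0.149, edgeR), whereas it did in R1881 (log2 change -1.15, adjusted p = 0.000229, edgeR). Mitochondrial genes took 1.33% to 2.07% of counts in control libraries and 2.20% to 3.00% in siNFYA and siKLF5 libraries, and their part in the changes of single genes was not tested. All 10 luminal prostate markers were detected in every library, while the basal marker KRT5 and the T cell marker CD3E were at 0 in all 17. The stromal markers COL1A1 and VIM stood at 31 to 119 and 14 to 62 counts. The endothelial markers VWF and PECAM1 stood at 8 to 62 and 1 to 6 counts. The other basal, stromal and blood markers were at 0 in some libraries.

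The first bases of the transcripts are shown for the members whose values carry the results, because the TOP motif lies there. Each line gives 15 bases before the annotated start and 15 from it, 5′ to 3′ on the strand of the gene, with the unbroken run of C and T from the start in capitals. The sequences and coordinates are from RefSeq, build GRCh38.p14.
RPL36A: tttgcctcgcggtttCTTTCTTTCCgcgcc (chrX:101390996-101391025, plus strand)
RPL36AL: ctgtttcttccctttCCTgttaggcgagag (chr14:49620612-49620641, minus strand)
RPL22: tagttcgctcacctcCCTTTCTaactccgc (chr1:6199581-6199610, minus strand)
RPL22L1: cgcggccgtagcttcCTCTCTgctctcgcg (chr3:170870181-170870210, minus strand)
RPS27: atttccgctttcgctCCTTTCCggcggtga (chr1:153990747-153990776, plus strand)
RPS27L: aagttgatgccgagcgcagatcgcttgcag (chr15:63157463-63157492, minus strand)
RPL7L1: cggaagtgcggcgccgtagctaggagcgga (chr6:42879601-42879630, plus strand)
RPS3: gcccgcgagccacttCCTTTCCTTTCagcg (chr11:75399503-75399532, plus strand)
RPL13A: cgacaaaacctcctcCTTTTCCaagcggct (chr19:49487593-49487622, plus strand)
RPS10: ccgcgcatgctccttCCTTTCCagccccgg (chr6:34426055-34426084, minus strand)
Counted from the annotated start, RPL36A has a run of 10 pyrimidines and its copy RPL36AL a run of 3. In RPL36AL the bases just before that start are also an unbroken stretch of pyrimidines. Its run of 3 thus depends on the exact base annotated as the start. RPS27 has a run of 7 and its copy RPS27L none. RPL22 and RPL22L1 both begin with such a run, of 7 and 6 bases. RPS3, with 11, had the longest run counted from the start of those printed.

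Start sequences were matched for 67 of the 83 genes. A C at the start within a run of at least 5 pyrimidines was found in 47 of the 67 (70.15%), against 5.14% of all genes in the same table. In the window of 250 bases before to 50 after the start, read on both strands, CCAAT, the letters that NF-Y binds, stood in 31.3% of the 67, against 37% of all genes. CGGAAG, which ETS factors bind, stood in 59.7% against 19.4%, GGGCGG in 58.2% against 46.2%, and CACCC, of the kind KLF factors bind, in 52.2% against 58.3%. GGGCGG and CGGAAG can share the letters CGG where they overlap, and a match describes the letters only.

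The 83 genes made up much of the messenger RNA. In TPM, a relative transcript abundance that accounts for length, they held 21.4% ± 0.424 of the total in control vehicle (SD, n = 3), and 31 of the 50 highest genes and 61 of the 100 highest were ribosomal protein genes. Without the 6 copies RPL3L, RPL10L, RPL26L1, RPL7L1, RPS27L and RPL22L1, the remaining 77 had a median of 2174 TPM over the 17 libraries, with quartiles at 1561 and 2973. RPL41, the smallest protein of the large subunit, was highest at 9087 TPM, followed by RPS27 at 6704, RPS18 at 5671, RPS24 at 5007, RPL37A at 4797 and RPL7A at 4003. RPL3L, the striated muscle copy of RPL3, was lowest at 1.0 TPM, and RPL10L, the testis copy of RPL10, was next at 14.9. Then came RPL26L1 at 140, RPL7L1 at 159, RPS27L at 301 and RPL22 at 542 TPM. Chromosome 19 carries 12 of the 83, chromosome 3 carries 8 and chromosome 17 carries 6, and the others are spread over further chromosomes.

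**Figure D1:**
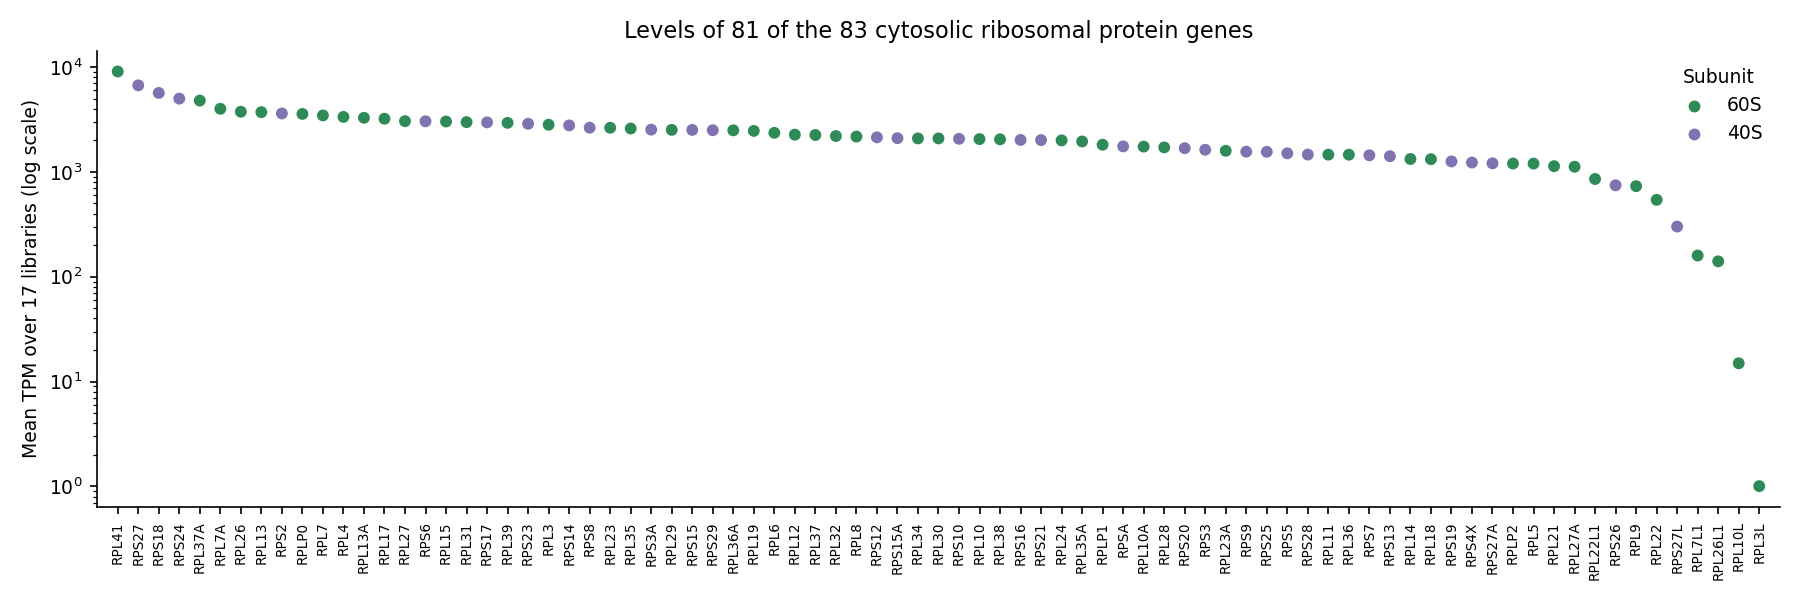
Mean TPM over the 17 libraries of 81 of the 83 genes on a log axis, ordered from highest to lowest and coloured by subunit (green, 60S; purple, 40S). All but the 6 genes at the right end and RPL22L1, RPS26 and RPL9 form a continuous band above them, and the copies RPL10L (14.9) and RPL3L (1.0) lie far below.

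The share of each library taken by ribosomal protein genes was lower with R1881 than with vehicle in all 3 siRNA arms. In control siRNA cells they took 6.95%, 7.25% and 7.26% of estimated counts in vehicle and 5.63%, 5.71% and 5.75% in R1881. In siNFYA cells the shares were 7.23%, 7.20% and 6.74% in vehicle and 5.55%, 5.95% and 5.73% in R1881. In siKLF5 cells they were 6.83% and 6.41% in vehicle and 5.40%, 5.68% and 5.65% in R1881. In each siRNA arm all vehicle libraries lay above all R1881 libraries. The log2 ratios of the mean shares were -0.33 in control, -0.30 in siNFYA and -0.25 in siKLF5 cells. Exact two-sided permutation tests gave p = 0.1, 0.1 and 0.2, the smallest values that 3 against 3 and 3 against 2 libraries allow, and 0.35 for each after adjustment over the 7 comparisons of the share. Both subunits took part: the large subunit went from 4.54% ± 0.0968 to 3.62% ± 0.0307 and the small from 2.62% ± 0.0761 to 2.08% ± 0.0271 in control cells (SD, n = 3). By TPM the share went from 21.4% ± 0.424 to 17.98% ± 0.136 in the same cells. Leaving mitochondrial genes and the ribosomal RNA-like AC010970.1 out of the total, the shares were 7.32% ± 0.160 in vehicle and 5.79% ± 0.0596 in R1881 in control cells, 7.34% ± 0.188 and 5.90% ± 0.209 in siNFYA cells (SD, n = 3), and 6.82% ± 0.276 (n = 2) and 5.73% ± 0.144 in siKLF5 cells. The difference between treatments was as large without these genes. In bulk RNA a smaller share of these mRNAs and a larger amount of other RNA cannot be told apart, nor can fewer cells of a kind and less RNA per cell.

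**Figure D2:**
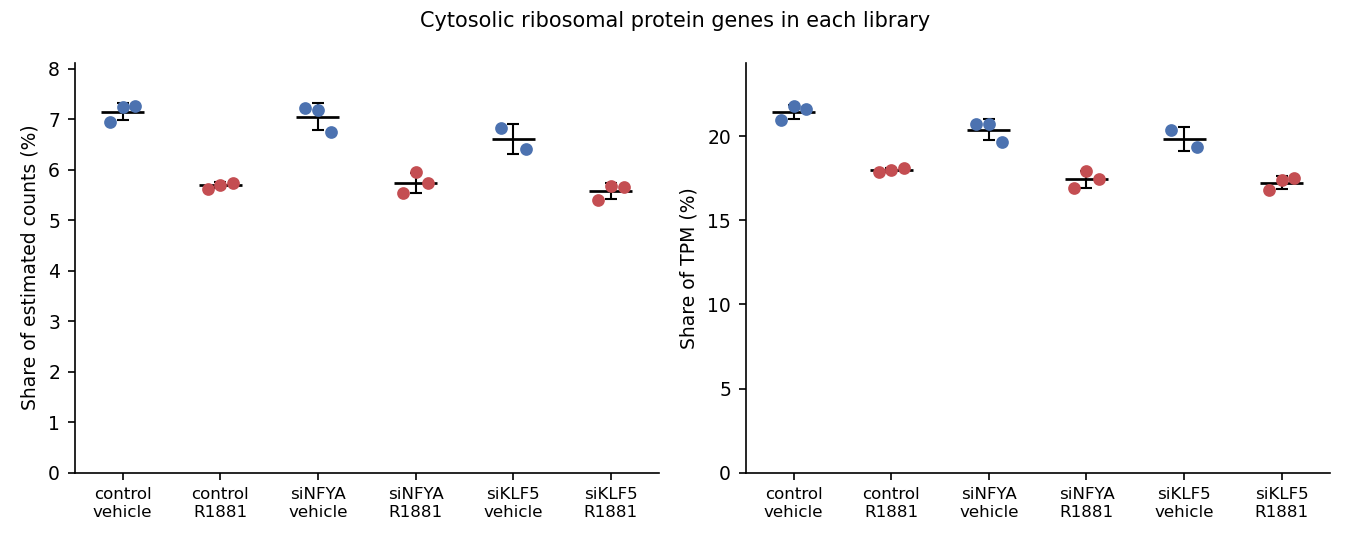
Share of estimated counts (left, percent) and of TPM (right, percent) held by the 83 genes in each library, by group; points are libraries (blue, vehicle; red, R1881), horizontal bars are means and vertical bars are 1 SD. In each siRNA arm every R1881 library lies below every vehicle library, with counts at 5.40% to 5.95% against 6.41% to 7.26%.

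The differences between siRNAs in the share were smaller than those between treatments. The siNFYA and control means were 7.055% and 7.15% in vehicle (exact permutation p = 0.5) and 5.745% and 5.69% in R1881 (exact permutation p = 0.8). By TPM they were 20.4% ± 0.612 and 21.4% ± 0.424 in vehicle, where no siNFYA library reached a control library (exact permutation p = 0.1, the smallest possible; 0.175 adjusted over 7 comparisons), and 17.4% and 17.98% in R1881, the opposite order to that of counts (exact permutation p = 0.2). Without mitochondrial genes and AC010970.1 the siNFYA mean in vehicle lay above that of control, as given above, so the order depends on the scale. The siKLF5 mean was 6.62% ± 0.300 in vehicle (SD, n = 2), below all 3 control libraries (exact permutation p = 0.2, the smallest possible), and 5.58% in R1881 (exact permutation p = 0.3). By TPM the siKLF5 mean in vehicle was 19.85% (exact permutation p = 0.2). In R1881 it was 17.2% against 17.98% in control, and no siKLF5 library reached a control library (exact permutation p = 0.1, the smallest possible, and 0.175 adjusted over 7 comparisons).

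Gene by gene, the response to R1881 was small, and more genes were called lower than higher in control and siNFYA cells but not in siKLF5 cells. Changes were tested with edgeR's quasi-likelihood test on counts scaled by TMM, which sets the bulk of genes to no net change, and a gene was called at a Benjamini-Hochberg adjusted p under 0.05 over all genes tested. In control siRNA cells 36 of the 82 ribosomal protein genes that passed the filter on low counts were lower with R1881 and 5 were higher, where 30.8% of all 12601 genes tested were called lower and 32.1% were called higher. The median change of the 82 was -0.08 on the log2 scale and that of all genes -0.01. No ribosomal protein gene changed by more than 0.5 on the log2 scale, which 38.7% of all genes did. The 5th and 95th percentiles of the 82 were -0.23 and 0.12, and those of all genes were -1.42 and 1.29. Of 50 large subunit genes 21 were lower and 4 higher, and of 32 small subunit genes 15 were lower and 1 higher.

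The scale decides how these changes read. With library totals in place of TMM, 78 of the 82 genes were called lower and 1 higher in control cells, with a median of -0.31, while 50.1% of all genes were called lower and 19.7% higher and their median moved to -0.25. All 36 genes called lower by TMM were also called lower by library totals. Of the 5 called higher by TMM, RPL22L1 alone was called higher by library totals, and RPL7L1, RPL34, RPL35A and RPS15 changed sign. The values below are on the TMM scale, and CPM scaled by TMM are given for each library.

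**Figure D3:**
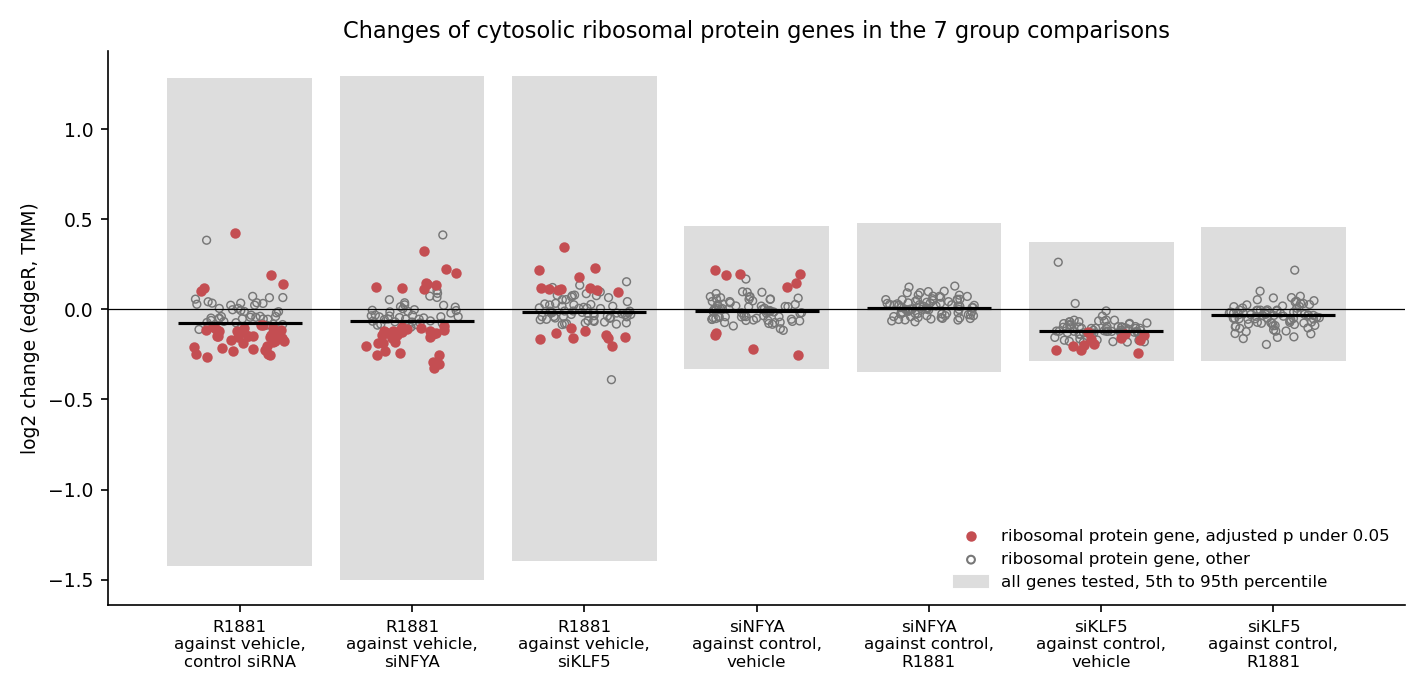
log2 change (edgeR, TMM) of each ribosomal protein gene in the 7 group comparisons; red points passed an adjusted p of 0.05, open points did not, black bars are medians of the ribosomal protein genes, and grey blocks span the 5th to 95th percentile of all genes tested. The ribosomal protein genes stay within a narrow band beside the grey blocks, with medians of -0.08, -0.06 and -0.02 under R1881 and of -0.12 for siKLF5 in vehicle.

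Among the small subunit genes, RPS3, whose protein lines the entry of the mRNA channel, stood at 795, 809.9 and 838 CPM in control vehicle and at 691, 698 and 689 CPM in control R1881. The vehicle and R1881 libraries did not overlap, and the log2 change was -0.23 ± 0.033 (SE; adjusted p = 1.37e-06, edgeR). In siNFYA cells RPS3 went from 849, 838 and 829 CPM to 654, 678 and 676 CPM, again with no overlap (log2 change -0.33 ± 0.034, adjusted p = 6.45e-09, edgeR). In siKLF5 cells it stood at 759 and 676 CPM in vehicle and at 602, 676 and 656 CPM in R1881 (log2 change -0.15 ± 0.048, adjusted p = 0.00847, edgeR), with the lower vehicle library at the level of the highest R1881 library. RPS27, a small zinc-binding protein of the 40S subunit and the second most abundant of these mRNAs, went from 863, 868 and 841 CPM to 719.8, 715 and 736 CPM in control cells (log2 change -0.25 ± 0.050, adjusted p = 0.000142, edgeR). Its change was 0.01 in siNFYA and -0.04 in siKLF5 cells and did not pass there (adjusted p = 0.845 and 0.488, edgeR). RPS27L, its copy and a known target of p53, stood at 112.5, 112 and 106 CPM in control vehicle and at 90.9, 84.3 and 100.3 CPM in control R1881 (log2 change -0.26 ± 0.065, adjusted p = 0.00115, edgeR). RPS15, a 40S assembly protein of the head, was the 1 small subunit gene called higher in control cells (log2 change 0.10, adjusted p = 0.0363, edgeR), and it changed sign to -0.14 by library totals.

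Among the large subunit genes, RPL13A, also known for its release from the ribosome during inflammation, stood at 2318, 2419 and 2474 CPM in control vehicle and at 2008, 2022 and 2017 CPM in control R1881 (log2 change -0.25 ± 0.037, adjusted p = 1.88e-06, edgeR). RPL17, a protein of the peptide exit tunnel, stood at 1094, 1140 and 1158 CPM and at 940.1, 936 and 978 CPM (log2 change -0.25 ± 0.049, adjusted p = 9.96e-05, edgeR). RPL36A stood at 438, 428 and 439 CPM in vehicle and at 361, 381 and 374 CPM in R1881 (log2 change -0.23 ± 0.041, adjusted p = 3.68e-05, edgeR). For each of these 3 genes the vehicle libraries of control cells all lay above the R1881 libraries. RPL12, RPL10A and RPL3, genes whose splicing is regulated through transcripts that are degraded, changed by -0.21, -0.16 and -0.08 on the log2 scale (adjusted p = 0.00015, 0.000241 and 0.0205, edgeR).

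RPL5 and RPL11 bind 5S ribosomal RNA and, when free of the ribosome, the p53 regulator MDM2. RPL5 stood at 736, 777 and 765 CPM in control vehicle and at 644, 652 and 664 CPM in control R1881 (log2 change -0.22, adjusted p = 5.75e-06, edgeR), with no overlap. RPL11 stood at 430.1, 463 and 457 CPM in vehicle and at 412, 404 and 433 CPM in R1881 (log2 change -0.11, adjusted p = 0.0192, edgeR), where the lowest vehicle library lay below the highest R1881 library. The stalk proteins RPLP0, RPLP1 and RPLP2, which recruit elongation factors to the ribosome, did not move as a group. RPLP0 changed by -0.08 on the log2 scale (adjusted p = 0.0352, edgeR), while RPLP1 (-0.07, adjusted p = 0.139) and RPLP2 (0.07, adjusted p = 0.168) did not pass the same test. In siNFYA cells RPLP0 changed by -0.18 and RPLP1 by -0.12 (adjusted p = 6.83e-05 and 0.0135, edgeR).

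In siNFYA cells 31 of 82 ribosomal protein genes were called lower with R1881 and 9 were called higher, against 31% and 31.2% of all genes, with a median of -0.06 beside -0.02 for all genes. In siKLF5 cells 9 of 83 were called lower and 11 were called higher, against 28.4% and 30.7% of all genes, with a median of -0.02 beside -0.01 for all genes. The siKLF5 counts rest on 2 vehicle libraries that differ: without replicate 3, 23 were called lower and 9 higher, and without replicate 2, 6 were called lower and 22 higher. In siNFYA cells the count called higher was 16 without R1881 replicate 1. By library totals 75 and 72 genes were called lower in the siNFYA and siKLF5 arms and none was called higher, with medians of -0.29 and -0.25 beside -0.24 for all genes in both, where 49.2% and 47.1% of all genes were called lower.

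The 3 responses to R1881 share no library. In all 3 arms 6 genes were called lower, among them RPL5, RPL13A, RPL17, RPS3 and RPS3A, where 22.95% of the 12554 genes tested in all 3 arms were. RPS3A in siKLF5 cells passed narrowly (-0.16, adjusted p = 0.0496, edgeR) with overlapping libraries, and was at 0.0066 without siKLF5 vehicle replicate 2. Without siKLF5 R1881 replicate 1 it was at -0.09 and did not pass. Called higher in all 3 were RPL22L1, RPL35A and RPL7L1, against 25.8% of all genes, but by library totals RPL35A was at -0.12, -0.09 and -0.05 and RPL7L1 at -0.05, -0.10 and -0.12 in control, siNFYA and siKLF5 cells. No ribosomal protein gene was called in opposite directions, and only 0.191% of all genes were. Of the 82 tested in all 3 arms 20 were called in none, against 24.5% of all genes. RPL13A stood at 2417, 2421 and 2300 CPM against 1941, 2127 and 1977 CPM in siNFYA cells and at 2252 and 2180 CPM against 1957, 1982 and 2020 CPM in siKLF5 cells, without overlap in either (log2 changes -0.24 and -0.16, adjusted p = 4.63e-06 and 0.000288, edgeR). RPS12, a small subunit protein near the beak of the 40S subunit, was not called in control cells (-0.06) and was lower in siNFYA cells (-0.31, adjusted p = 1.92e-06, edgeR), where its vehicle libraries lay at 733, 737 and 724 CPM and its R1881 libraries at 622, 566 and 588 CPM. RPS29 (-0.25) and RPS21 (-0.25), also of the small subunit, were lower in siNFYA cells (adjusted p = 0.000147 and 0.00124, edgeR).

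RPS10, of the 40S head, and RPL26L1, the copy of RPL26, were called higher in the siNFYA arm (0.20 and 0.23, adjusted p = 0.000201 and 0.0129, edgeR) and in the siKLF5 arm (0.23 and 0.22, adjusted p = 1.9e-05 and 0.0243, edgeR) by TMM. By library totals RPS10 was at -0.02 and -0.005 and RPL26L1 at 0.003 and -0.02 in these arms, so neither rise held on that scale. RPL24 and RPL38, of the large subunit, were likewise called higher by TMM in siNFYA cells (0.14 each, adjusted p = 0.00362 and 0.00614, edgeR) and changed sign by library totals (-0.08 each).

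Whether the response differed between arms was tested as an interaction. Of the ribosomal protein genes 0 of 82 passed for siNFYA and 0 of 83 for siKLF5 with edgeR, where 0.333% of all genes were called higher and 0.389% lower for siNFYA, and 0.0157% higher and 0% lower for siKLF5. At an unadjusted p under 0.05 there were 15 and 19 ribosomal protein genes, against 11.97% and 6.71% of all genes. For siKLF5 8 of 83 interaction values were below 0, with a median of 0.09 beside 0.01 for all genes. This interaction uses the same siKLF5 vehicle and control vehicle libraries as the comparison in vehicle. For siNFYA 32 of 82 were below 0, with a median of 0.02 beside -0.02 for all genes. DESeq2 called 2 higher and 1 lower for siNFYA, against 1.94% and 1.57% of all genes, and 3 higher for siKLF5, against 0.0788%. For siNFYA the smallest adjusted p-values were those of RPS12 (-0.24 ± 0.063, adjusted p = 0.0654, edgeR) and RPS27 (0.26 ± 0.071, adjusted p = 0.0878, edgeR). Without siNFYA R1881 replicate 1, 7 genes were called higher and 1 lower for siNFYA, and without siKLF5 vehicle replicate 3, 6 were called higher for siKLF5.

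**Figure D4:**
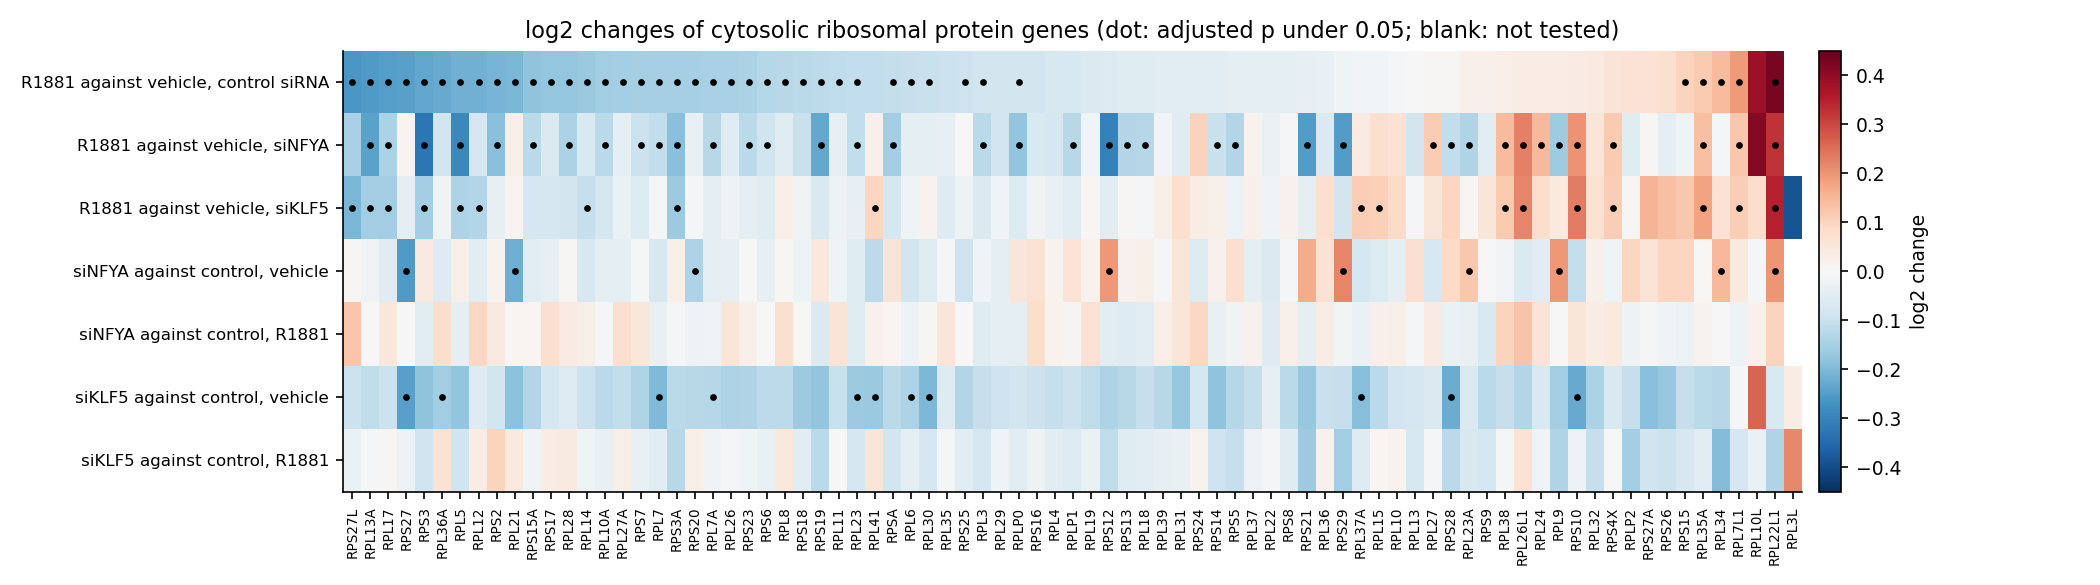
log2 change (edgeR, TMM; red higher, blue lower) of 81 of the 83 ribosomal protein genes in the 7 group comparisons, ordered by the response to R1881 in control cells; dots mark an adjusted p under 0.05 and a blank cell marks RPL3L, which did not pass the filter. Dots at the left of the R1881 rows mark genes such as RPL13A, RPL17 and RPS3 that were lower in all 3 arms, RPL22L1 at the right was higher in all 3, and the 2 rows of knockdowns in R1881 hold no dot.

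The largest shifts were those of copies. RPL22L1, which can replace RPL22 in the 60S subunit, stood at 199, 225 and 210.1 CPM in control vehicle and at 277.5, 275.5 and 299 CPM in control R1881. Its log2 change was 0.43 ± 0.048 (adjusted p = 2.74e-08, edgeR), the highest of the 82 genes, and its vehicle and R1881 libraries did not overlap. It remained 0.19 by library totals (adjusted p = 0.00153, edgeR). In siNFYA cells it went from 243, 253 and 230.4 CPM to 291, 319 and 302 CPM (0.33, adjusted p = 2.24e-06, edgeR), and in siKLF5 cells from 222 and 181 CPM to 228, 268 and 274 CPM (0.35, adjusted p = 0.00041, edgeR), without overlap in either; by library totals these changes were 0.10 and 0.11 and did not pass the test. RPL22 itself stood at 339.6, 353 and 339.9 CPM in control vehicle and at 339, 331 and 334 CPM in control R1881 and did not pass (-0.04, adjusted p = 0.38, edgeR). Per length, RPL22L1 thus held 56.1% ± 1.74 of the TPM of the pair in control vehicle and 62.8% ± 0.553 in control R1881 (SD, n = 3). The pair stood at 63.2% ± 1.06 and 66.5% ± 0.727 in siNFYA vehicle and R1881, and at 55.4% ± 8.71 (n = 2) and 60.8% ± 3.73 in siKLF5.

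RPL36AL, the copy of RPL36A on chromosome 14, moved against its partner. It stood at 165, 169 and 167 CPM in control vehicle and at 274.5, 272 and 278 CPM in control R1881, with no overlap (log2 change 0.72 ± 0.044, adjusted p = 2.82e-13, edgeR). The change was 0.80 ± 0.045 in siNFYA and 0.76 ± 0.045 in siKLF5 cells (adjusted p = 6.34e-14 and 7.3e-13, edgeR), and over all alternatives run it lay between 0.48 and 0.86 in the 3 arms with no adjusted p above 7.63e-07. RPL36A was lower in control cells, as given above, and at -0.09 and -0.02 in siNFYA and siKLF5 cells, where it did not pass (adjusted p = 0.0721 and 0.74, edgeR). By TPM the pair went from 2936 ± 44.4 and 486 ± 5.65 to 2233 ± 51.5 and 713 ± 6.49 for RPL36A and RPL36AL in control cells (SD, n = 3). RPL36AL held 14.2% ± 0.318 of the pair in vehicle and 24.2% ± 0.541 in R1881, and the 3 values of each group did not overlap. In siNFYA cells the share went from 14.6% to 23.8% and in siKLF5 cells from 14.3% to 22.2%.

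**Figure D5:**
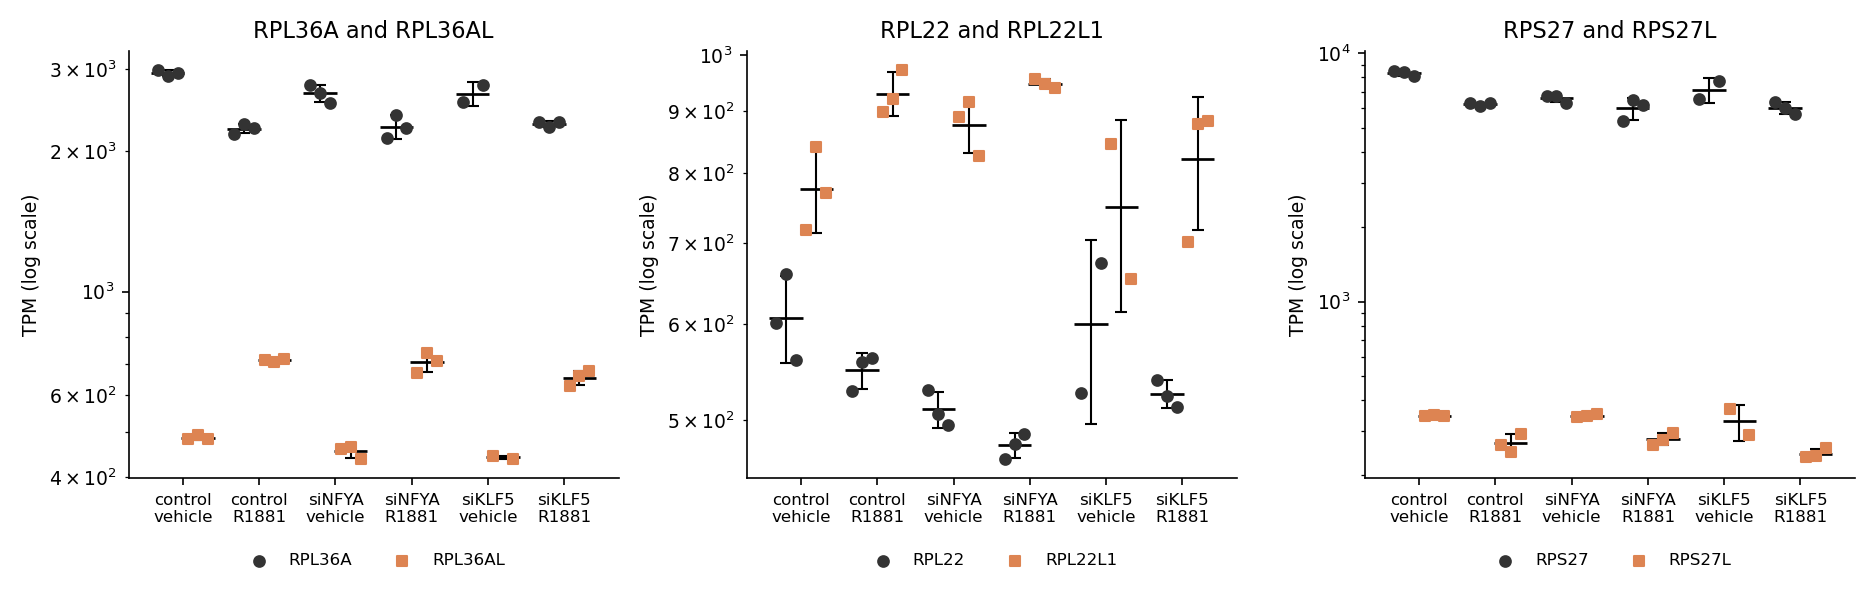
TPM on log axes of 3 genes (dark circles) and their copies (orange squares) in each library, by group; horizontal bars are means and vertical bars are 1 SD. RPL36AL rises from 486 to 713 TPM with R1881 in control cells while RPL36A goes from 2936 to 2233; the mean of RPL22L1 lies above that of RPL22 and that of RPS27L far below that of RPS27 in every group.

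The other copies held small parts of their pairs. RPS27L was 4.00% of the TPM of its pair in control vehicle and 4.12% in control R1881, and both genes were lower. RPL7L1 stood at 325, 329.7 and 346 CPM in control vehicle and at 384.5, 375 and 383 CPM in control R1881 (0.19 ± 0.036, adjusted p = 5.45e-05, edgeR), with no overlap, but was at -0.05 by library totals. Its share of the pair with RPL7 went from 3.92% to 4.75%. RPL26L1 went from 3.33% to 3.81% and RPL10L from 0.601% to 0.809% of their pairs in the same cells, and neither passed the test in control cells (adjusted p = 0.712 and 0.149, edgeR). RPL3L, at 0.56 to 1.79 CPM, was too low to pass the filter in the table with siNFYA, and it was 0.0336% of its pair with RPL3 in control vehicle. Of the ribosomal proteins outside the name pattern, FAU, a fusion with a ubiquitin-like protein, was called higher with R1881 in control cells by TMM (0.22, adjusted p = 0.000101, edgeR) and was at -0.01 by library totals. RACK1, a scaffold on the 40S head, was lower (-0.11, adjusted p = 0.0143, edgeR).

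With edgeR on the TMM scale, knockdown of NFYA in vehicle moved ribosomal protein genes about as often as genes at large. Of 82 genes 6 were called higher and 4 lower, against 6.67% and 6.79% of all genes, with a median of -0.01 beside -0.00 for all genes. RPS27 was lowest, at 734, 727 and 694 CPM in siNFYA vehicle against 863, 868 and 841 CPM in control vehicle, with no overlap (-0.26 ± 0.050, adjusted p = 0.00118, edgeR). RPS20 of the small subunit was also lower (-0.14, adjusted p = 0.0242, edgeR). RPS29 was higher, at 248, 255 and 254 CPM against 197.5, 222 and 231 CPM (0.22, adjusted p = 0.00412, edgeR), and RPS12 was higher, at 733, 737 and 724 CPM against 596.5, 633.5 and 689 CPM (0.19, adjusted p = 0.00441, edgeR), both without overlap. RPL22L1 was higher as well (0.20, adjusted p = 0.00757, edgeR), and RPL34 passed at 0.14 (adjusted p = 0.0406, edgeR). These comparisons share the control vehicle libraries with the R1881 comparison of control cells. They share the siNFYA vehicle libraries with the R1881 comparison of siNFYA cells, where RPS12 and RPS29 were called lower. The 2 results for each of these genes are therefore not independent. DESeq2 called 3 higher and 6 lower, against 4.07% and 6.52% of all genes. On log2(TPM + 1) 0 were higher and 6 lower, against 1.15% and 1.44% of all genes. Leaving out control vehicle replicate 1 left 2 called higher and siNFYA vehicle replicate 2 left 3, and leaving out any library but siNFYA vehicle replicate 3 left 1 or 2 called lower. RPS27 passed under all 12 alternatives.

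A further 3 calls under siNFYA in vehicle concern genes with processed pseudogenes of nearly the same sequence, and their counts are uncertain. RPL9, RPL23A and RPL21 had 72.4%, 48.3% and 20.7% of the reads of gene and pseudogenes together assigned to pseudogenes, and RPS28 and RPS2 had 20.1% and 10.2%. RPL9 (0.20, adjusted p = 0.0215, edgeR) and RPL23A (0.12, adjusted p = 0.0312, edgeR) were called higher, and RPL21 was called lower (-0.22, adjusted p = 0.0286, edgeR). From control vehicle to siNFYA vehicle the mean pseudogene share went from 73.6% to 70.1% for RPL9 and from 50.1% to 44.0% for RPL23A. For RPL21 it went from 19.15% to 24.2%, and the libraries of the compared groups did not overlap in any of these genes. The part of this split in the calls was not tested. Of 1118 pseudogenes named after these members, 19 had over 100 counts.

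In R1881 siNFYA called 0 of 82 ribosomal protein genes with edgeR, against 2.63% of all genes higher and 3.33% lower, and 4 genes had an unadjusted p under 0.05, against 19.0% of all genes; DESeq2 also called 0. The median was 0.01 beside -0.02 for all genes. RPS27 stood at 639, 793.5 and 740.5 CPM in siNFYA R1881 and at 719.8, 715 and 736 CPM in control R1881, so the groups overlapped. Replicate 1 of siNFYA R1881 had the lowest ribosomal protein level of its group, with a median of -0.05 against the control R1881 mean and 64 of 82 genes below it, and without it 4 genes were called higher.

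Under siKLF5 in vehicle nearly all ribosomal protein genes lay below control. Of 83 genes 12 were called lower and 0 higher, against 0.55% and 0.77% of all genes, and 81 of 83 changes were below 0, with a median of -0.12 beside -0.01 for all genes. Of the 12, 8 were of the large and 4 of the small subunit, among them RPS27, RPS10, RPS28, RPL30, RPL7, RPL37A, RPL41, RPL23 and RPL36A. Against the control vehicle mean the median was -0.08 in siKLF5 vehicle replicate 2, with 66 of 83 genes below, and -0.16 in the library labelled siKLF5 vehicle replicate 3, with 79 of 83 below. A drop of similar size to that of replicate 2 occurred within the control group. Control vehicle replicate 1 had a median of -0.06 against the mean of the other control vehicle libraries, with 74 of 83 genes below. Of the siKLF5 vehicle pair, the library with more KLF5 counts (22) was the lower in ribosomal protein genes. Without replicate 3, 8 genes were called lower, 5 of them among the 12, and without replicate 2, 48 were called lower, 8 of them among the 12. Leaving out control vehicle replicate 2 left 2 calls and leaving out replicate 3 left 3, and 0 passed on log2(TPM + 1).

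RPS27 stood at 675 and 773 CPM in siKLF5 vehicle against 862, 868 and 841 CPM in control vehicle (-0.24 ± 0.048, adjusted p = 0.0111, edgeR). RPS10 stood at 548 and 542 CPM against 622, 633 and 657 CPM (-0.23, adjusted p = 0.00282, edgeR), and RPL7, a 60S protein, at 1475 and 1391 CPM against 1652, 1637 and 1641 CPM (-0.20, adjusted p = 0.00649, edgeR). RPL30, RPL37A and RPS28 had changes of -0.20, -0.19 and -0.22 (adjusted p = 0.0343, 0.0272 and 0.0329, edgeR), with RPS28 uncertain because of its pseudogenes. In all 6 genes both siKLF5 libraries lay below all 3 control libraries. These genes were named as the largest falls called in this comparison, and that choice favours such a gap. RPS27 was called lower under siNFYA and under siKLF5 in vehicle, and both comparisons share the control vehicle libraries. RPS12 and RPL34 differed between the siKLF5 vehicle replicates, at 699.7 against 461 CPM and at 384 against 254 CPM.

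In R1881 siKLF5 called 0 of 83 genes with edgeR, against 0.832% of all genes higher and 0.55% lower. With edgeR 8 had an unadjusted p under 0.05, against 12.51% of all genes. DESeq2 called 1 higher and 1 lower, against 1.91% and 4.56% of all genes. The median was -0.03 beside 0.00 for all genes. RPS27 stood at 736.5, 714 and 659.5 CPM and RPS10 at 622, 664 and 631.5 CPM in siKLF5 R1881, and both overlapped the control R1881 libraries. Replicate 1 of siKLF5 R1881 lay lowest, with a median of -0.09 against the control R1881 mean and 68 of 83 genes below it.

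The TOP motif was set beside the response to R1881. In control cells the 47 genes with the motif had a median change of -0.08 and the 20 without it -0.00. The medians were -0.06 and -0.04 in siNFYA cells and -0.02 and 0.05 in siKLF5 cells. Of the genes with a start sequence, the motif was held in control cells by 20 of 26 called lower, 3 of 5 called higher and 24 of 36 not called. CCAAT was counted in the window of 250 bases before to 50 after the start. It was found there in 5 of the 26 called lower and 1 of the 5 called higher, against 15 of the 36 not called. Under siNFYA in vehicle CCAAT stood in the window of 2 of 5 genes called higher, 0 of 2 called lower and 19 of 60 not called. Of those called higher, RPL9 has ATTGG, the same letters on the other strand, 84 to 80 bases before its start, and RPL34 has CCAAT 221 to 217 bases before its start. Of 12 alternatives RPL9 did not pass in 6 and RPL34 did not pass in 8. The counts of RPL9 are also uncertain because of its pseudogenes.

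Genes whose products make, carry or drive ribosomes were set beside the 30.8% of all genes called lower and 32.1% called higher with R1881 in control cells. Of 16 TOP mRNAs of other proteins 8 were lower with R1881 in control cells and 2 higher, with a median of -0.08: NAP1L1, a histone chaperone, was at -0.80, HNRNPA1, a splicing factor, at -0.52 and TPT1, a growth-related protein, at 0.42. Of 75 ribosome assembly genes 20 were lower and 20 higher, with TCOF1, a factor for ribosomal RNA transcription, at -1.02, the methyltransferase FBL at -0.65 and MPHOSPH10 at 0.73. Of 15 genes of RNA polymerase I and its factors 7 were lower and 2 higher, with the subunits POLR1E at -0.89 and POLR1D at -0.60. Of 11 genes that signal to TOP mRNAs 4 were higher and 2 lower by TMM, with a median of 0.11. By library totals 3 were higher and 5 lower, with a median of -0.13. By TMM MTOR was at 1.67, the kinase RPS6KB2 at 0.78 and MYC at -0.93. Of 33 initiation and termination factors 20 were higher and 5 lower by TMM, with a median of 0.20, and by library totals 10 were higher and 14 lower, with a median of -0.04. All values named passed the edgeR test in control cells.

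Mitochondrial ribosomal proteins, which build a separate ribosome, had 22 of 77 genes higher and 14 lower with R1881 in control cells, with a median of 0.03 and changes from -0.64 to 1.504. The cytosolic genes, from -0.26 to 0.43, spanned a narrower range. Under siNFYA in vehicle, where 6.67% of all genes were called higher and 6.79% lower, 16 of the 75 assembly genes were higher and 0 lower, with PPAN and KRI1 at 0.40 each and a median of 0.07, and 7 of 77 mitochondrial ribosomal protein genes were higher and 0 lower. Under siKLF5 in vehicle 3 of 16 other TOP mRNAs were lower, NPM1 at -0.16, EEF1G at -0.13 and EEF1A1 at -0.11, while 0 of 75 assembly genes and 0 of 77 mitochondrial ribosomal protein genes passed with edgeR. Of the chaperones and importins for ribosomal proteins 4 of 10 were lower and 1 higher with R1881 in control cells.

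At the level of transcripts, 51 of 423 transcripts of these genes were lower with R1881 in control cells and 4 higher, against 7.06% and 9.24% of all transcripts tested. With any 1 of the 6 libraries left out 27 to 33 were called lower, and by library totals 114 were. The largest calls fell on minor transcripts. A coding transcript of RPL31, ENST00000409028, stood at 21.2, 24.85 and 18.4 CPM in vehicle and at 7.56, 11.0 and 8.56 CPM in R1881 (-1.25, adjusted p = 0.00162, edgeR), and made up 2.56% of its gene. ENST00000464716 of RPS24, a processed transcript at 12.9% of its gene, stood at 202, 163 and 138 CPM and at 87.1, 76.2 and 89.6 CPM (-0.99, adjusted p = 0.0185, edgeR). ENST00000531188 of RPS3 was lower, at -1.06 (adjusted p = 0.0379, edgeR). ENST00000472628 of RPL23A stood at 4.37, 10.8 and 3.56 CPM in vehicle and at 0 in all R1881 libraries, and ENST00000472354 of RPL13 at 0 in all vehicle libraries and at 17.0, 17.4 and 9.92 CPM in R1881. For RPL22L1 both called transcripts, ENST00000463836 and ENST00000295830, were higher (0.46 and 0.37, adjusted p = 0.0137 and 0.0133, edgeR), and so was ENST00000493763 of RPL7L1 (0.23, adjusted p = 0.00177, edgeR); by library totals the 3 were at 0.28, 0.19 and 0.05 and did not pass. The main transcripts of RPL12 (ENST00000361436) and RPL10A (ENST00000322203), at 98.0% and 96.7% of their genes, changed by -0.28 and -0.21 (adjusted p = 0.00297 and 9.94e-05, edgeR). The 2 main transcripts of RPL3, ENST00000216146 and ENST00000401609, at 84.3% and 14.8%, did not pass (adjusted p = 0.107 and 0.25, edgeR).

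Under siNFYA 5 of 423 transcripts were higher in R1881 and 0 lower, against 0.381% and 0.192% of all transcripts, and none of the 5 is the main transcript of its gene. ENST00000601390 of RPS16, a retained intron, stood at 13.4, 12.65 and 13.6 CPM in siNFYA R1881 and at 1.89, 3.56 and 5.45 CPM in control R1881 (1.86, adjusted p = 0.037, edgeR). ENST00000480662 of RPS24, also a retained intron, was at 1.83, ENST00000497322 of RPL12 at 1.82 and ENST00000486733 of RPS4X at 1.97 (adjusted p = 0.0391, 0.025 and 0.0357, edgeR). With any 1 library of the compared groups left out, 0 or 1 transcript was called. In vehicle 0 of 423 passed with edgeR, against 0.178% higher and 0.276% lower, 76 had an unadjusted p under 0.05, against 10.4% of all transcripts, and DESeq2 called 11 higher and 10 lower.

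Retained-intron transcripts of the ribosomal protein genes lay mostly above control under siNFYA, and so did those of other genes. In vehicle 64 of 82 were above 0, with a median of 0.76, against 74.1% and 0.62 for 3078 retained-intron transcripts of all other genes. In R1881 66 of 82 were above 0, with a median of 0.79, against 74.5% and 0.64. Under siKLF5 the medians were 0.24 in vehicle and 0.45 in R1881, against 0.33 and 0.42 for other genes. With R1881 in control cells the median was -0.38, with 21 of 82 above 0, against -0.19 and 41.9%. These transcripts held 4.80% of the counts of the 83 genes in control vehicle and 5.03% in siNFYA vehicle. For siKLF5 0 of 431 transcripts passed with edgeR in either treatment, against 0.00261% higher and 0.0183% lower in vehicle and 0.0601% and 0.0235% in R1881; 63 and 39 had an unadjusted p under 0.05, against 5.08% and 6.67% of all transcripts, and DESeq2 called 15 lower in vehicle and 2 each way in R1881.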

How the data were processed

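Library preparation kept the strand, per the labels' protocols. FastQC, Trimmomatic, kallisto, DESeq2 and GRCh38 are listed in the submitters' processing notes, without versions. The authors deposited estimated counts per gene, in a table of control with siNFYA libraries and a table of control with siKLF5 libraries, whose control columns are identical. Other deposited tables join an estimated count, a TPM and another, unnamed number (not used) per gene and transcript. Replicate numbers follow label order. Samples were grouped by siRNA and treatment, as the labels give them.

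Counts were rounded and tested with edgeR 4.0.16 in R 4.3.3 (TMM, filterByExpr, quasi-likelihood F test, Benjamini-Hochberg over all genes or transcripts, all groups of a table in 1 fit); fits were tested on simulated data. A change is a log2 fold change with its SE. Alternatives were DESeq2 1.42.0, library totals, no filter, the compared groups only, limma 3.58.1 on log2(TPM + 1) or log2(TPM + 0.1) for genes with at least 1 TPM in 2 libraries, and each library left out. Shares were tested by exact permutation (SciPy 1.17.1); their 95% binomial (Wilson) half-width is at most 0.0234 percentage points and covers counting error only. kallisto can split reads between a gene and its near-identical pseudogenes, and members with over 5% of reads in pseudogenes are called uncertain. Types of transcripts and positions came from GENCODE release 29; 17 snoRNA host genes planned as a list were not used here.

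The members and lists were chosen with earlier results of these data known. Genes named are the 6 largest rises and falls called per comparison, the 6 highest and lowest levels, copies and their partners, the stalk, RPL5, RPL11 and the genes of regulated splicing, and up to 3 genes per other list; further calls listed by name were chosen after their values were seen. A few genes enter the counts and medians and are not reported here by name.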

Additional observations from a re-analysis of the deposited data

How the results depend on the processing

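No paired analysis was possible because the labels count the libraries in 1 series, and groups share no number. By library totals the genes called higher and lower with R1881 were 1 and 78 in control, 0 and 75 in siNFYA and 0 and 72 in siKLF5 cells, 6 were lower for siKLF5 in vehicle, and 1 transcript was higher and 114 lower with R1881. With TPM (either pseudocount) the R1881 counts were 1 and 68, 0 and 65, and 0 and 51. On log2(TPM + 1) 16.0%, 15.7% and 13.8% of all genes were called higher and 26.8%, 29.5% and 26.3% lower. For siNFYA in vehicle 0 were higher and 6 lower, against 1.15% and 1.44% of all genes. For siKLF5 in vehicle 0 were lower, against 0.0138%. DESeq2 called 3 higher and 6 lower for siNFYA in vehicle, against 4.07% and 6.52% of all genes. It called 33 lower for siKLF5 in vehicle, against 8.94% of all genes. For siKLF5 in R1881 it called 1 higher and 1 lower, against 1.91% and 4.56%. It called 2 higher and 1 lower for the siNFYA interaction, against 1.94% and 1.57%, and 3 higher for the siKLF5 interaction, against 0.0788%. Of transcripts DESeq2 called 11 higher and 10 lower for siNFYA in vehicle, 15 higher and 1 lower in R1881, 15 lower for siKLF5 in vehicle and 2 higher and 2 lower in R1881. Without a filter 39 were lower for siKLF5 in vehicle and 5 lower in R1881, against 1.03% and 0.791% of all genes. For the siNFYA interaction 2 were higher and 3 lower, against 0.680% and 0.828%, and for the siKLF5 interaction 7 were higher, against 0.339%. Of transcripts 3 were lower for siNFYA in vehicle and 1 higher in R1881. With the compared groups only, 3 were higher with R1881 in siKLF5 cells, 3 lower for siKLF5 in vehicle, and 1 higher and 1 lower in R1881; for an interaction this setting was not run, since it uses all groups.

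Leaving out 1 library gave, for R1881, 2 to 6 higher and 25 to 41 lower in control, 6 to 16 and 21 to 44 in siNFYA, and 6 to 22 and 6 to 23 in siKLF5 cells. It gave 2 to 7 higher and 1 to 3 lower for siNFYA in vehicle, 0 to 4 higher in R1881, 2 to 48 lower for siKLF5 in vehicle, 0 to 7 higher and 0 to 1 lower for the siNFYA interaction, and 0 to 6 higher for the siKLF5 interaction. Transcripts ranged over 2 to 4 higher and 27 to 33 lower with R1881, 0 to 1 higher for siNFYA in R1881 and 0 to 1 lower for siKLF5 in vehicle. A group left with 1 library is assumed to vary like the others.

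Changes with R1881 turned negative by library totals and by TPM (the same at either pseudocount as rounded) for RPL7L1 (-0.046 and -0.027), RPL34 (-0.095 and -0.023), RPL35A (-0.12 and -0.032) and RPS15 (-0.14 and -0.070) in control cells. They did so for RPL24 (-0.079 and -0.019), RPL38 (-0.082 and -0.00796) and RPL35A (-0.089 and -0.028) in siNFYA cells, and for RPL26L1 (-0.015 and -0.033), RPL35A (-0.054 and -0.026) and RPL38 (-0.12 and -0.066) in siKLF5 cells. RPS10 turned by library totals only, to -0.023 in siNFYA and -0.0048 in siKLF5 cells. RPS3A in siKLF5 cells ranged from -0.32 to 0.0066 with 1 library left out, and turned without siKLF5 vehicle replicate 2. By share of TPM the log2 ratios were -0.25 and -0.22 for R1881 in control and siNFYA cells, -0.073 and -0.044 for siNFYA in vehicle and R1881 (the latter reversed) and -0.061 for siKLF5 in R1881. The cause was not tested.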

Other observations

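Against the control R1881 mean, the median over the ribosomal protein genes was -0.05, 0.08 and 0.01 (log2) in siNFYA R1881 replicates 1, 2 and 3. In siNFYA vehicle replicate 3, where the ribosomal RNA-like gene AC010970.1 took 2.85% of counts against 0.0902% to 0.424% in the other libraries, the median was -0.05 against control vehicle, with 56 of 82 genes below.

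Across the genes, the change with R1881 in control cells and the length of the main transcript had a Spearman correlation of -0.10 over 82 genes; the genes share libraries and are not independent, so no test is given.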
